A study of Homo sapiens with 4 samples.

Results

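Translation initiation and elongation factors, the proteins that load ribosomes onto mRNAs and move them along, were examined for enrichment of their own mRNAs in the YTHDF2 pulldown. The members were all protein-coding genes with a symbol starting with EIF or EEF, without the EIF2AK kinases. The rule used no measured value, but earlier results of these data were known when it chose the members. The gene table held 67 of them. Of these, 41 (61.2%) held at least 1 peak, against 6934 of 20056 protein-coding genes (34.6%). Together the 41 had 97 of the 14858 peaks. The other 26 had no peak, and a peak list gives no level for them.

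The libraries came from HCCLM3, an established human liver cancer line, of genotype WT as labelled. They were 2 RNA immunoprecipitation (RIP) libraries made with YTHDF2, a cytosolic protein that reads N6-methyladenosine (m6A) in RNA, and 2 libraries of the input RNA. No pulldown with a control antibody was analysed here, and all libraries were of 1 cell line. The deposited file was 1 list of peaks called for RIP against input, with no value per library, so neither replicate spread nor sequencing depth is known and no difference between libraries could be tested. Of 11 markers of hepatocytes and liver cancer lines, the keratins KRT8 and KRT18 had a peak at a q of at most 0.01 and APOB one above it. ALB, APOA1, TTR, SERPINA1, TF, FGB, AFP and GPC3 had no peak, which gives no level for them. Of 8 markers of other cells HBB alone had a peak at such a q, while CD68, PECAM1 and LUM had peaks above it.

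In initiation, eIF2 brings the initiator tRNA to the small ribosomal subunit, eIF1, eIF1A and eIF3 hold the scanning complex together, and the eIF4 factors recognise and unwind the capped end of the mRNA. The factors eIF5 and eIF5B then release eIF2 and join the large subunit, and eEF1 and eEF2 drive elongation. YTHDF2 is best known for bringing deadenylases to m6A-bearing mRNAs and so shortening their lives. Many mRNAs of the translation machinery begin with a C and a run of pyrimidines, the 5' terminal oligopyrimidine (TOP) motif, through which the mTOR kinase controls their translation.

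Each peak is given by the authors' fold enrichment, the ratio of RIP to the caller's background at the summit. The number of RIP fragments at the summit and the background, in fragments scaled to the RIP, were worked out from the fold and p by the caller's arithmetic. Where a fold has an interval, it is the exact Poisson 95% interval of the RIP fragments. It covers counting error only, leaves out the error of the background, and treats PCR copies as separate molecules. A peak is said to pass when the caller's q was at most 0.01, that is a −log10 q of at least 2.

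Nearly all members with a peak had one that passed. It was 40 of 41 members, against 53.1% of all protein-coding genes with a peak. Translation factor mRNAs were mostly deeply covered, and 36 of the 41 had a peak with a background of 10 or more. Within that stratum, set after the data were seen, 35 of 36 members passed, against 73.7% of the protein-coding genes in it. The stratum has no upper bound, so it does not make members and other genes alike in depth. By peaks, 74 of 97 passed, against 40.7% of the peaks of all protein-coding genes.

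The size of the enrichment was close to that of other genes. The best peak, that of highest fold, had a median of 2.56-fold over the 41 members (95% interval of the median from order statistics 2.25 to 2.85), against 2.61-fold over all protein-coding genes with a peak. On the log2 scale the medians were 1.35 and 1.38. The order of the medians turned with the peaks that were kept. With peaks of at least 20 RIP fragments they were 1.22 for 36 members and 1.12 for 4179 protein-coding genes, and with exon and UTR peaks only they were 1.36 for members and 1.28 for all protein-coding genes. The members stayed lower with the mean over peaks, at 1.19 against 1.25, and with passing peaks only, at 1.36 against 1.39. They were also lower with the peak of highest −log10 q, at 1.23 against 1.32. The counting interval of the best peak lay above 2-fold in 21 members (51.2%), against 23.8% of all protein-coding genes with a peak, and this interval narrows as fragments increase. A best peak of 4-fold or more was found in 10 members, or 24.4%, against 9.6% of all protein-coding genes with a peak. In 5 of these 10 it rested on fewer than 20 RIP fragments. The 10 also include both EIF3C and its near-identical copy EIF3CL, whose reads may not be separable. Genes with several peaks were frequent, with 27 members (65.9%) holding at least 2 peaks, against 40.1% of protein-coding genes with a peak, and 13 (31.7%) holding at least 3, against 16.9%. The number of peaks was not compared at like depth.

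**Figure D1:**
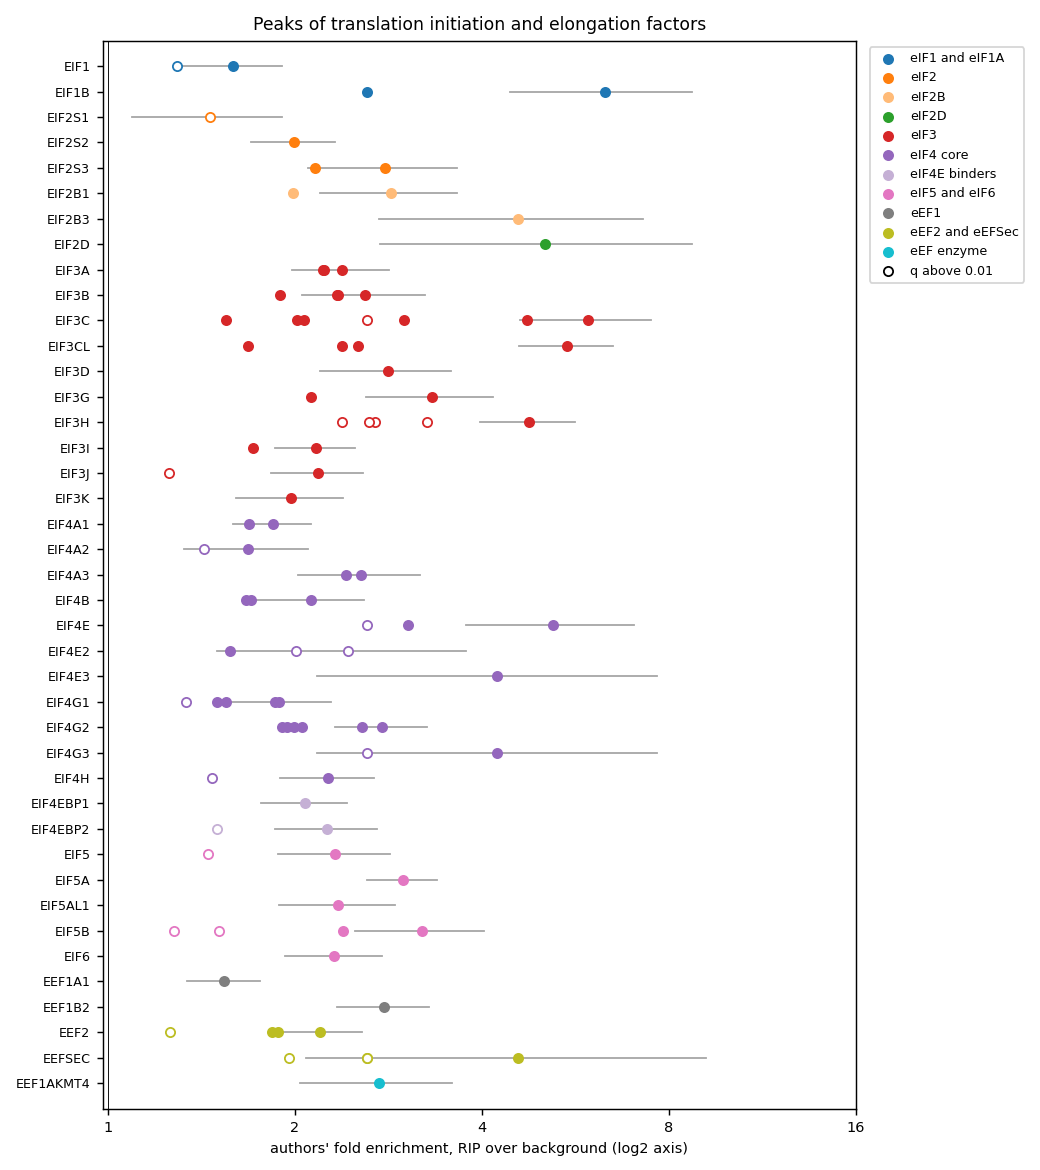
Authors' fold enrichment of every peak (horizontal axis, log2 scale) for the 41 members with a peak, ordered by factor group from eIF1 at the top to the eEF enzyme at the bottom. Filled points passed a q of 0.01, open points did not, and the grey line is the 95% counting interval of each member's best peak. Most best peaks lie between 2- and 4-fold, and those of EIF1B, EIF3C, EIF3CL and EIF4E lie above 5-fold with 35 or more fragments.

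Fold and background ran in opposite directions. Spearman's rho between the fold and the background of the best peak was -0.77 over the 41 members and -0.49 over all protein-coding genes with a peak. Both are descriptions across genes of 1 list, and the background is the denominator of the fold. The 4 members whose best peak had a background of 80 or more had folds of 1.54 to 2.16. The median best peak of the members held 93 RIP fragments over a background of 36.0, against 22 fragments over 7.48 for all protein-coding genes with a peak.

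**Figure D2:**
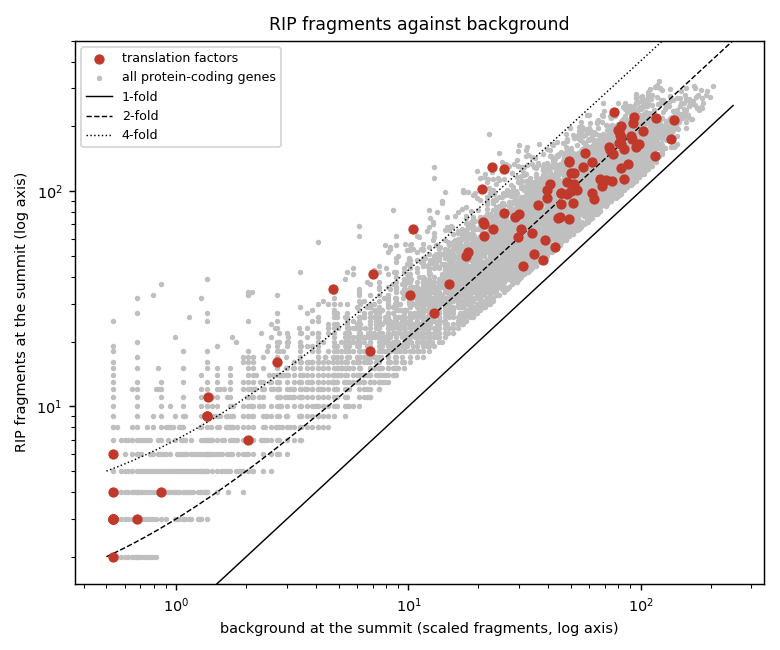
RIP fragments at each peak summit (vertical axis, log scale) against the background in scaled fragments (horizontal axis, log scale), for the 97 peaks of translation factors in red and the peaks of all protein-coding genes in grey, with lines at 1-, 2- and 4-fold. The translation factor peaks crowd at high background, most of them near 2-fold, and a small cluster sits at 2 to 7 fragments.

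Cytosolic ribosomal proteins, taken by symbol, were set beside the factors. Of these, 62 of 86 had a peak and 60 had one that passed, with a median best peak of 2.66-fold over 123.5 fragments. Among those that had a peak with a background of 10 or more, 57 of 58 passed. At least 2 peaks were held by 19 of the 62 (30.6%), at least 3 by 2 (3.2%), and a best peak of 4-fold or more by 10 (16.1%). The differences between these groups were not tested. Other genes of translation, a list of 43 that holds the release factors, the poly(A)-binding proteins, the mTOR and MNK branches, the eIF2 kinases and their phosphatase subunits and the mitochondrial factors, had a peak in 29, of which 21 passed. Their median best peak was 2.28-fold, and 5 of the 29 (17.2%) had one of 4-fold or more. At least 2 peaks were held by 16 (55.2%) and at least 3 by 12 (41.4%). The last share was above that of the members (31.7%). The highest there were CYFIP1 (5.66-fold over 10 fragments), a binder of eIF4E, LARP4 (5.63-fold over 101), which binds poly(A) tails, and ABCF1 (5.48-fold over 8), which binds eIF2. PPP1R15A, the stress-induced subunit that directs dephosphorylation of eIF2, had 4.08-fold over 129 fragments.

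The first bases of the transcripts were read from the RefSeq promoter table (GRCh38.p14), which held 54 of the 67 members. A run was counted where the base at the RefSeq start was C and at least 4 C or T bases followed directly, at any start listed for the gene and on the transcript strand only. It was present in 13 of 54 members, or 24.1% (95% Clopper-Pearson interval 13.5 to 37.6), against 6.24% of 15843 protein-coding genes (5.86 to 6.62) and 69.6% of the 69 ribosomal protein genes in the table. The 9 members with such a run and a peak are shown because they span elongation factors, eIF2, eIF3 and eIF4. Each line gives 5 bases before the start and 20 from it, with the run in capitals.
EEF1A1 (chr6:73521013-73521037, minus strand): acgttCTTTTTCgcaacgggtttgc
EEF1B2 (chr2:206159890-206159914, plus strand): cgggtCCTTTTTCCTCTCTTCagcg
EEF2 (chr19:3985444-3985468, minus strand): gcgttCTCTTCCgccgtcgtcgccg
EIF2D (chr1:206612446-206612470, minus strand): cgggcCCTTTTCgcggccgggcccc
EIF2S3 (chrX:24054951-24054975, plus strand): ccttcCTCTTTTggcaacatggcgg
EIF3D (chr22:36529147-36529171, minus strand): gtttcCTCTTTTCCTggtttctcaa
EIF3K (chr19:38619183-38619207, plus strand): accacCTCTTCCTgttcccgtcctt
EIF4A2 (chr3:186783572-186783596, plus strand): gctgtCTTTTCagtcgggcgctgag
EIF4B (chr12:53006451-53006475, plus strand): cgggtCTTTTgcgttctctttccct
The runs were 5 to 16 bases long, the longest at EEF1B2 and the shortest at EIF4B. All 9 members passed, as did 25 of the 26 members with a peak and without a run. Over all protein-coding genes with a peak, 279 of 439 with a run and 2762 of 5309 without passed. The median best peak of the 9 was 2.20-fold over a background of 45.5, against 2.57-fold over a background of 32.3 for the 26. Among ribosomal protein genes the order was the other way, with 3.07-fold for 35 genes with a run and 2.42-fold for 14 without. Over all protein-coding genes the medians were 2.61-fold with a run and 2.60-fold without. A match of letters at an annotated start does not show where transcription begins in these cells.

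EIF1 keeps the scanning ribosome open until it meets a start codon, and EIF1B is its close relative. EIF1B held the highest fold of any member, 6.30-fold (4.44 to 8.70) over 35 fragments, at chromosome 3, 40312144 to 40312524 (hg38). That peak lay 94.8% of the way along the gene. An earlier EIF1B peak, at 10.2% of the gene, had 2.61-fold (2.14 to 3.14) over 108 fragments. EIF1 had 1.59-fold (1.31 to 1.91) over 113 fragments and a second peak of 1.29-fold over 175 fragments that did not pass. The intervals of the best peaks of EIF1B and EIF1 did not overlap, and EIF1 had far more background, 70.7 against 4.71. EIF1AX, EIF1AY and EIF1AD had no peak.

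The eIF2 subunits had modest enrichment. EIF2S3, the gamma subunit that binds GTP and the initiator tRNA, had a 3' UTR peak of 2.79-fold (2.10 to 3.64) over 52 fragments and a peak near the start of 2.15-fold over 67. EIF2S2, the beta subunit, had 1.99-fold (1.70 to 2.32) over 165 fragments in its 3' UTR. EIF2S1, the alpha subunit that stress kinases phosphorylate, was the one member whose peak did not pass. Its 3' UTR peak had 1.46-fold (1.09 to 1.91), from 51 RIP fragments over a background of 34.7, and a second protein-coding gene overlaps there. EIF2S3B had no peak.

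Of the exchange factor eIF2B, which recharges eIF2 with GTP, EIF2B3, of the catalytic part, and EIF2B1, of the regulatory part, had peaks. EIF2B3 had 4.57-fold (2.73 to 7.26) over 16 fragments at the very end of its 3' UTR (chromosome 1, 44850652 to 44850981). EIF2B1 had 2.85-fold (2.20 to 3.65) over 62 fragments in exon 4 of 9 and 1.99-fold over 97 fragments in the 3' UTR. EIF2B2, EIF2B4 and EIF2B5 had none. EIF2D, which can place tRNA on the ribosome without eIF2, had 5.06-fold (2.74 to 8.72) over 11 fragments. That peak was classed as 3' UTR but lay at 48.1% of the gene span. EIF2A had no peak.

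eIF3, the large scaffold that bridges the small subunit and eIF4G, was covered broadly. A peak lay in 10 of its 14 genes (13 subunits and the copy EIF3CL), and all 10 had one that passed. The median best peak was 2.71-fold, with a range of 1.97 to 5.92. EIF3E, EIF3F, EIF3L and EIF3M had none.

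EIF3H, one of the subunits with an MPN domain, had 4.76-fold (3.97 to 5.65) over 127 fragments in its 3' UTR, at chromosome 8, 116644644 to 116644960. The 4 other peaks of EIF3H lay in introns 1 and 2, rested on 3 to 7 fragments and did not pass. EIF3G, the RNA-binding subunit, had 3.32-fold (2.61 to 4.17) over 72 fragments in the 3' UTR and 2.13-fold over 98 near the start. EIF3D, which can itself bind caps, had 2.82-fold (2.19 to 3.57) over 67 fragments in exon 2 of 15.

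EIF3A and EIF3B, which anchor the complex, had several peaks of nearly one size. EIF3A had 3, at 2.22-, 2.38- and 2.23-fold in gene order, over 182, 121 and 207 fragments, the last pair in exons 14 and 19 of 22. EIF3B had 4, from 1.89- to 2.59-fold over 76 to 221 fragments. They reached from 5.02% to 99.6% of the gene, and so lay at both ends. All 7 passed, and the highest fold within a gene was 1.07 times the lowest for EIF3A and 1.37 times for EIF3B. Among the remaining subunits EIF3J had 2.18-fold over 136 fragments at its start and a 3' UTR peak of 1.25-fold that did not pass. EIF3I had 2.16-fold over 179 fragments in the 3' UTR and 1.71-fold in exon 7 of 12. EIF3K had 1.97-fold over 100 fragments in exon 6 of 8.

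EIF3C and EIF3CL are near-identical genes on opposite strands of chromosome 16, and each holds a MIR6862 microRNA gene. The mature microRNAs are shown because both loci carry the same letters and serve below as a common landmark. RefSeq lists the same 5p and 3p sequence at MIR6862-2 in EIF3C and at MIR6862-1 in EIF3CL, with the seed (bases 2 to 8) in capitals.
hsa-miR-6862-5p (chr16:28724257-28724278, plus strand, and chr16:28391025-28391046, minus strand): cGGGCAUGcugggagagacuuu
hsa-miR-6862-3p (chr16:28724296-28724319, plus strand, and chr16:28390984-28391007, minus strand): cCUCACCCagcucucuggcccucu
The hairpins were identical at 70 of 70 bases. With each hairpin's first base as zero, summits of the copies fell at matching places. They lay at -12480 bases in EIF3C and -12481 in EIF3CL, then at -10226 in EIF3C and -10223 in EIF3CL, and in the 3' UTRs at 11232 in EIF3C and 11255 in EIF3CL, where negative values lie upstream. At the first place the fold was 2.07 (1.70 to 2.49) in EIF3C, from 108 RIP fragments and 76 input fragments, and 2.52 (2.06 to 3.06) in EIF3CL, from 101 and 58. At the next it was 1.55 in EIF3C and 1.68 in EIF3CL. At the 3' UTR it was 4.73 (3.87 to 5.73) over 102 fragments in EIF3C and 5.48 (4.58 to 6.5) over 130 in EIF3CL. All 3 pairs of intervals overlapped.

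The copies differed around the hairpin. EIF3C had its highest peak 710 bases after the hairpin's first base, with 5.92-fold (4.60 to 7.49) over 67 fragments, and another of 3.0-fold (2.38 to 3.73) at -776 bases. EIF3CL had 1 peak there, at 299 bases, of 2.38-fold (1.70 to 3.26) over 37 fragments, and no peak matched the EIF3C exon 18 peak of 2.02-fold. How reads that fit both copies were placed is not stated in the labels or the list, so the split of fragments between the genes is uncertain. The remaining EIF3C peak, of 3 fragments in an intron, is EIF3C by its annotation but lies inside the span of EIF3CL.

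**Figure D3:**
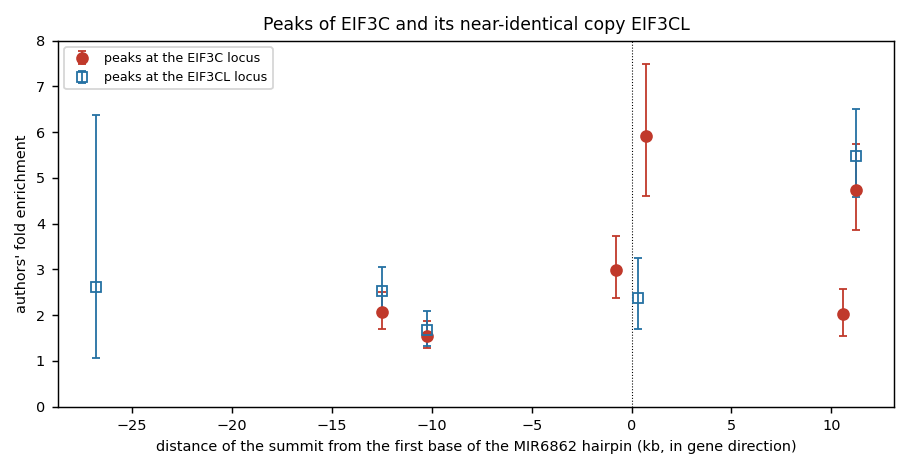
Authors' fold enrichment of peaks at the EIF3C locus (red circles) and the EIF3CL locus (blue squares) against the distance of the summit from the first base of the MIR6862 hairpin in kilobases, with 95% counting intervals. The copies have peaks at matching distances on the left and in the 3' UTR on the right, and differ close to the hairpin.

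The eIF4 factors bind the cap, the poly(A)-binding protein and the RNA to be unwound. Of 12 core genes 11 had a peak and all 11 had one that passed, with a median best peak of 2.44-fold and a range of 1.68 to 5.21. EIF4E1B had none. EIF4E, the cap-binding protein, had the highest, 5.21-fold (3.77 to 7.02) over 41 fragments at its start (chromosome 4, 98928791 to 98929105). A peak at 98.6% of the gene, in the 3' UTR, had 3.04-fold (2.12 to 4.23) over 33 fragments. EIF4E and EIF3B were the 2 members with passing peaks in both the first and the last 10% of the gene.

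The relatives of EIF4E differed in depth. EIF4E3 had 4.24-fold (2.17 to 7.66) in exon 4 of 7, from 9 RIP fragments against 2 input fragments. EIF4E2, which takes part in repression of mRNAs, had its highest fold, 2.44 (1.5 to 3.78) over 18 fragments, in a 3' UTR peak that did not pass. Only its exon 5 peak passed, with 1.57-fold over 98 fragments.

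The scaffolds of the eIF4G family each had a passing peak. EIF4G2, an eIF4G relative that lacks the eIF4E-binding part, had 6 peaks, all of which passed, with folds of 1.90 to 2.76 over 137 to 181 fragments. They ran from 42.3% of the gene to the 3' UTR peak of 2.57-fold (2.18 to 3.01) at 98.9%. EIF4G1, the main scaffold, had 5 peaks of 1.34- to 1.89-fold over 64 to 133 fragments, and 4 of them passed. Its best, in exon 30 of 33, was 1.89-fold (1.54 to 2.29), and that of EIF4G2 was 2.76-fold (2.32 to 3.26). These intervals narrowly missed each other, but they leave out the error of the backgrounds, of 78 and 72 input fragments. Every other EIF4G2 peak had an interval that overlapped that of the best EIF4G1 peak. Whether the genes differ was not tested. EIF4G3 had 4.24-fold (2.17 to 7.66) over 9 fragments in a peak classed as 5' UTR, at 47.0% of the gene span. It also had an intron peak of 3 fragments that did not pass.

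The helicase EIF4A1 and its close relative EIF4A2 had low folds. EIF4A1 had 1.84-fold (1.59 to 2.12) over 190 fragments and 1.68-fold over 161. EIF4A2 had 1.68-fold (1.33 to 2.10) over 75 fragments, and a peak of 1.43-fold that did not pass. Their best intervals overlapped. EIF4A3, a member of the exon junction complex, had 2.56-fold (2.03 to 3.18) over 78 fragments in exon 11 of 12 and 2.41-fold over 200 near the start. The helicase partner EIF4B had 2.13-fold (1.73 to 2.59) over 98 fragments at the end of its 3' UTR, and 1.70- and 1.67-fold before it. EIF4H, with a like role, had 2.26-fold (1.89 to 2.69) over 129 fragments, and a 3' UTR peak of 1.47-fold that did not pass.

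Of the eIF4E-binding proteins, which block assembly of the cap complex until mTOR phosphorylates them, EIF4EBP2 had 2.25-fold (1.86 to 2.71) over 110 fragments at its start and a 3' UTR peak of 1.5-fold that did not pass. EIF4EBP1 had 2.08-fold (1.77 to 2.43) over 155 fragments in the 3' UTR. EIF4EBP3 and the transporter EIF4ENIF1 had no peak of their own.

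The late initiation factors had folds of like size. Of 6 genes 5 had a passing peak, with best peaks of 2.32- to 3.20-fold. EIF5B, the GTPase that joins the subunits, had 3.20-fold (2.50 to 4.03) over 70 fragments in the 3' UTR and 2.39-fold (2.07 to 2.75) over 193 in exon 4 of 24. Its peaks in exons 17 and 20, of 1.28- and 1.51-fold, did not pass. EIF5A, which helps ribosomes through stalls, had 2.98-fold (2.61 to 3.39) over 232 fragments near its end, the most RIP fragments of any member. EIF5AL1, a copy of EIF5A whose reads may not be separable from it, had 2.35-fold (1.88 to 2.90) over 86, and EIF5A2 had no peak.

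EIF5, which stimulates GTP hydrolysis by eIF2, had 2.33-fold (1.88 to 2.84) over 93 fragments in the 3' UTR, and a peak of 1.45-fold near the start that did not pass. EIF6, which keeps the subunits apart, had 2.32-fold (1.93 to 2.76) over 121 fragments near its start.

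Best peaks of the elongation factors ranged from 1.54- to 4.57-fold. EEF1A1, which delivers aminoacyl-tRNA, had the lowest best peak of the members that passed, 1.54-fold (1.34 to 1.76), from 214 RIP fragments against 204 input fragments. EEF1B2, an exchange factor for EEF1A1, had 2.78-fold (2.34 to 3.28) from 138 RIP against 72 input fragments near its end, and the intervals of these genes did not overlap. EEF1A2, EEF1D, EEF1E1 and EEF1G had no peak. EEF2, the translocase, had 4 peaks. In gene order they had 1.26-fold (not passing), 1.84-fold, 2.20-fold (1.87 to 2.56, in exon 14 of 15) and 1.88-fold in the 3' UTR, over 145, 157, 161 and 219 fragments.

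EEFSEC, the selenocysteine elongation factor, stood apart in location. All 4 of its peaks lay in introns, and 1 of them passed, with 4.57-fold (2.09 to 9.17) over 6 fragments. The other 3 rested on 2 or 3 fragments. Of the 7 genes of enzymes that modify elongation factors only the methyltransferase EEF1AKMT4 had a peak, of 2.73-fold (2.04 to 3.58) over 50 fragments. It lay where EEF1AKMT4 overlaps its readthrough gene EEF1AKMT4-ECE2, so it cannot be told to which it belongs. EEF2K, EEF2KMT and 3 further methyltransferases had none.

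The members had 11 intron peaks, in 5 genes. Their median of 3 fragments was also that of the 2804 intron peaks of all protein-coding genes. Of these 11, 5 had exactly 3 fragments over the genome-wide background, which gives a fold of 2.61. Intron peaks made up 11.3% of the members' peaks (5.80 to 19.4), against 23.1% for all protein-coding genes (22.3 to 23.8).

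In the deposited classes the members' peaks lay most often near a start site. The promoter class held 42 of 97 (43.3%, 95% Clopper-Pearson interval 33.3 to 53.7), against 17.8% for all protein-coding genes (17.2 to 18.5). The 3' UTR held 26 (26.8%, 18.3 to 36.8), against 33.0% (32.2 to 33.9), and exons held 16 (16.5%, 9.73 to 25.4), against 23.4% (22.7 to 24.2). Among passing peaks the 3' UTR held 27%, against 41.4% for all protein-coding genes. A passing 3' UTR peak was present in 18 of the 41 members (43.9%), against 27% of all protein-coding genes with a peak. Members passed more often in any class. Among genes with any passing peak, it was 18 of 40 members and 1871 of 3683 protein-coding genes, a smaller share of the members. Peaks of 1 gene are not independent draws, so the intervals given for shares of peaks are too narrow. The promoter class did not mean the start of the gene. Of the 42 promoter-class summits, 5 (11.9%) lay in the first 10% of the gene span, against 30.6% for all protein-coding genes. Their median position was 49.5% of the gene, against 43.0% for promoter-class peaks of all protein-coding genes. Of all 96 summits inside a member's span, 28 (29.2%, 20.3 to 39.3) lay in the last 10%, against 34.1% for all protein-coding genes (33.3 to 35.0).

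**Figure D4:**
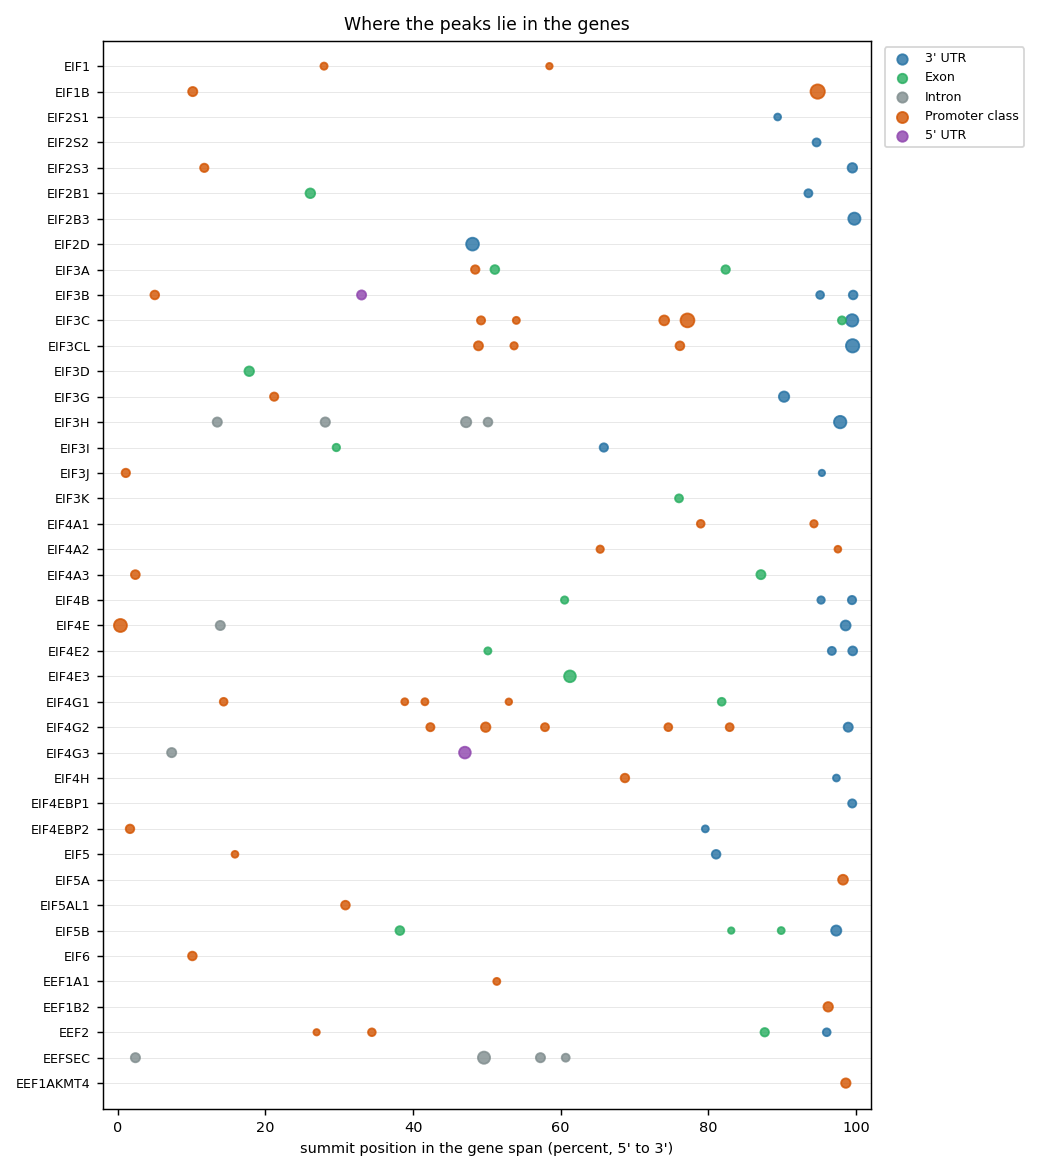
Position of each summit along its gene, from the 5' end at 0 to the 3' end at 100 percent of the gene span (horizontal axis), for the 41 members. The 1 EIF3C peak outside its span is left out. Colour gives the deposited class, point area grows with the fold, and promoter-class peaks are seen along the whole span, with 3' UTR peaks mostly at the right.

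Many of the members' peaks carried the name of a small RNA gene. The list names each peak for the gene of the nearest start site, and such genes can hold snoRNAs, which guide modification of ribosomal RNA, or microRNAs. For 30 of the 97 peaks (30.9%, 21.9 to 41.1), in 14 members, the deposited gene was a snoRNA or microRNA, against 7.85% for all protein-coding genes (7.37 to 8.34). EIF4G2 gave 6 of the 30, and EIF3C and EIF3CL together another 6. The small RNA lay inside the member's span for 29 of the 30 peaks, the exception being SNORA9B, named for a peak of EIF2B1. Within the promoter class it was 20 of 42, against 11.9% for all protein-coding genes. The deposited gene was the member itself for 45 of 97 peaks, or 46.4%, against 57.0%.

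Members that hold such a small RNA were found among eIF3, the eIF4 core, eIF5, eEF1 and eEF2. EIF4G2 had all 6 peaks under SNORD97, EEF2 had 3 under SNORD37, EIF4A1 had 2 under SNORA67, and EIF4A2 had 1 each under SNORA63 and SNORA4. EIF4G1 (SNORD66), EIF3A (SNORA19), EEF1B2 (SNORA41) and EIF5 (SNORA28) were others. In EIF4H and EIF4G3 the deposited genes were MIR590 and MIR1256. Of these 30 peaks 4 overlapped the small RNA named for them, in EEF1A1, EIF4A1, EIF4A2 and EIF4G1. In EEF1A1 the summit lay within it. Each peak was compared only with the small RNA named for it. The EIF4A2 peak named for SNORA63 also spanned SNORA4, and its summit lay within SNORA4. In those 4 genes the fold was 1.54, 1.84, 1.68 and 1.34. Of the 30 peaks, none of those with a higher fold than these overlapped the small RNA named for it. The members' other peaks, among them the best of EIF1B, EIF4E and EIF3H, were not compared with any small RNA. How much of the signal of those 4 peaks came from the small RNA was not tested.

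**Figure D5:**
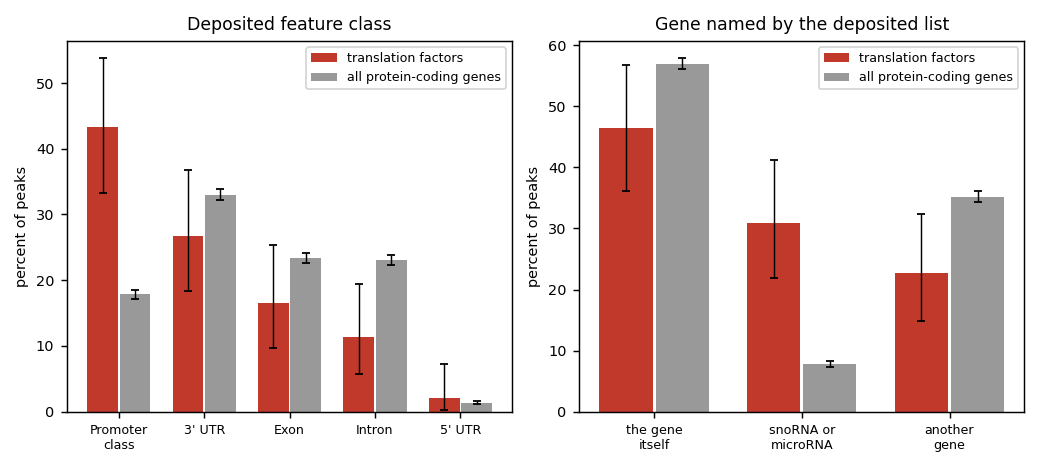
Percent of peaks by deposited feature class (left) and by the gene that the list names (right), for the 97 peaks of translation factors in red and the 12159 peaks of all protein-coding genes in grey, with 95% Clopper-Pearson intervals. The promoter class and snoRNA or microRNA names take a larger share of the translation factor peaks, at 43.3% and 30.9%.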

How the data were processed

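Peaks came from 1 list for 2 YTHDF2 RIP and 2 input libraries. HISAT2, MACS2 and hg38 are named in the submitters' processing notes; versions, options and how libraries were combined are not stated there. Per the file headers, the deposited columns were the fold enrichment (a ratio at the summit), −log10 p and −log10 q, a score, peak width in bp, summit offset and signed distance to the nearest start site. The authors' score was not used.

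Each peak went to the gene in the exon or intron annotation, otherwise to the gene whose span held the summit (with several, a protein-coding gene was preferred, after that the deposited one, and last the shorter), in RefSeq's GRCh38.p14 table. RIP fragments and background were solved, in MACS2's arithmetic, from fold = (k + 1) / (background + 1) and the Poisson tail, checked on simulated data, with the −log10 p met within 0.000189. Background was called a whole number of input fragments within 0.01 of a multiple of 0.68, the level of 1 scaled input fragment, which held for 71 of the 97 peaks.

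No test was run over members. The rule named every member with a peak, with full values for the 2 highest folds per group, members with 3 or more peaks, failures and paralogs. Members and lists were chosen with earlier results of these data known. Python 3.11.15, scipy 1.17.1 and pandas 2.3.3 were used.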

Additional observations from a re-analysis of the deposited data

How the results depend on the processing

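No paired analysis was possible because the deposited list combines the libraries, and leaving out a replicate could not be run for the same reason. The deposited gene was also used in place of the gene that holds the summit. With it, 31 members had a peak and 26 had a passing one, in place of 41 and 40. The 3' UTR share of their peaks was then 17.0% in place of 26.8%. With exon and UTR peaks only, 30 members had a peak and 26 had a passing one. The shares of all protein-coding genes that passed under these settings are not given here. The deposited names include snoRNA, microRNA and neighbouring genes, and the exon and UTR setting drops promoter-class and intron peaks. EEFSEC, with intron peaks alone, is among the members lost. The number of passing members was 33 to 40 under a q of 0.05, a −log10 q of at least 5, main chromosomes only, and without EIF3C, EIF3CL, EIF5AL1 and peaks in overlapping genes, a setting added after the data were seen. The median best-peak log2 fold was 1.35 and ranged from 1.19 (mean over peaks) to 1.36 (passing peaks only) over its 8 alternatives. With the peak of highest −log10 q as the best peak, the fold stayed within the counting interval for 40 of 41 members, the exception being EIF5B (2.39 in place of 3.20). With the deposited gene it stayed within for 22 members, moved outside for 7 and had no value for 12. The fold was then 1.79 in place of 4.57 for EEFSEC, 2.61 in place of 5.92 for EIF3C and 2.52 in place of 5.48 for EIF3CL. It was 3.26 in place of 4.76 for EIF3H, 2.13 in place of 3.32 for EIF3G and 1.45 in place of 2.33 for EIF5. For EIF4A1 it rose, to 2.41 in place of 1.84. The depth of the list limits EIF2D, EIF4E3, EIF4G3, EIF2B3 and EEFSEC most, whose best peaks rest on 6 to 16 fragments.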
